A study of Homo sapiens with 4 samples.

Results

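Keratins, claudins, desmosome and tight junction genes and the regulators of epithelial identity were followed in SKOV3, an established cell line from a human ovarian carcinoma. The set held 35 genes, chosen by name as members of these families, with earlier results of these data known, out of 19775 genes with a probe set of their own on the arrays. Of the 35, 26 were bright enough to be tested, 3 were dimmer than the filter, 2 (CTNND1 and ESRP2) had only probe sets shared with another gene symbol, and 4 (KRT6A, KRT17, KRT81 and F11R) had none in the annotation used. Gene expression was measured on 4 Affymetrix arrays, 2 from cells treated with rhSTIP1 and 2 from control cells without it. The label rhSTIP1 was taken to mean recombinant human STIP1, a cochaperone that cells also secrete; the labels used here give neither its dose nor the time of exposure. Each title carries the number 1 or 2, but what it stands for is not stated in the labels, nor is it stated that same-group arrays hold RNA of separate cultures. The p-values therefore reflect the spread between these arrays alone, and that spread may be technical.

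Epithelial cells are held together by tight junctions, in which claudins and occludin seal the space between neighbours, and by desmosomes, in which cadherins of the desmoglein and desmocollin families are tied to keratin filaments through plakoglobin, plakophilins and desmoplakin. Simple epithelia build those filaments mainly from KRT8 and KRT18 with KRT7 or KRT19, and basal cells of stratified epithelia from KRT5. Transcription factors of the grainyhead-like, OVOL and ELF families raise such genes, while the repressors SNAI2 and ZEB1 lower many of them when carcinoma cells turn mesenchymal.

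Signals are MAS5 values on a linear scale, scaled by the authors to the same trimmed mean on every array, and fold changes are on log2(signal + 16), which understates the change of dim genes. A gene was tested where its mean signal over the arrays reached 69.4. The median signal of an array was 69.0 on both rhSTIP1 arrays, against 66.0 and 79.2 on the control arrays. The ratio of 3′ to 5′ signal of ACTB, which rises as RNA degrades, was 2.62 and 8.79 in rhSTIP1 cells, against 2.74 and 2.45 in control cells, so rhSTIP1 array 2 stood apart in that measure. The same ratio of GAPDH was 0.992 and 1.32 in rhSTIP1 cells, against 0.987 and 1.16 in control cells, a far smaller spread. The ovarian lineage marker PAX8 (from 6779 to 8190 over the arrays) and ERBB2 (from 9641 to 15302) were bright, whereas MUC16, the CA125 antigen, stayed below the filter at 5.47 to 14.2. The others of that list were dimmer than PAX8 and ERBB2: WT1 from 37.3 to 118, MSLN from 185 to 323 and WFDC2 from 194 to 1005. WFDC2 was higher on the arrays numbered 2, by 2.02 in rhSTIP1 cells and 1.82 in control cells on the log2 scale. Of the markers of other cell types, 0 of 5 leukocyte genes with a probe set reached the filter, 4 of 7 fibroblast genes did (COL1A1, COL1A2, DCN and PDGFRA), 1 of 4 endothelial genes (PECAM1) and the 1 erythroid gene with a probe set (HBB). The summed signal of the fibroblast genes was 669.7 and 521 in rhSTIP1 cells, against 661 and 454 in control cells. The mesenchymal markers VIM (from 19354 to 24425) and CDH2 (from 2051 to 2503) were well above the filter, which 7 of the 8 genes of that list reached.

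No epithelial gene passed the test between rhSTIP1 and control cells, although KRT80 was higher and KRT5 lower in both rhSTIP1 arrays. With limma and Benjamini-Hochberg adjustment over all 12296 genes tested, 0 of the 26 had an adjusted p under 0.05, where percent called over all genes was 0. At an unadjusted p under 0.05 there were 2 of 26, KRT80 and KRT5, against 3.68% of all genes. The same 2 (7.69%) were the only members whose groups did not overlap and differed by at least 1.5-fold, against 5.69% of all genes. Without a minimum fold, 6 members or 23.1% had groups that did not overlap, against 28.9% of all genes. Of the 26 members 5 were separated higher and 1 lower with rhSTIP1, where 14.0% of all genes were separated higher and 14.9% lower. For any 1 gene, exact permutation of the 4 arrays (two-sided) reaches a p of 0.333 at the lowest. In simulated data of the same size the fit recovered 0 of 67 genes changed 2-fold, and the largest fold size among the members was 1.81, so changes of that size were below what this fit recovered in the simulation.

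The log2 fold change of the 26 members lay between −0.85 and 0.84, with a median of 0.14, against a median of 0.02 over all genes tested. It was above 0 for 20 members (76.9%), where 53.2% of all genes were above 0. That share depended on using the brightest probe set of each gene: when all probe sets of a gene were averaged instead, 12 members were above 0 and 14 below, and the median was −0.02. Under the same averaging 47.7% of all genes were above 0, with a median of −0.013. The average also takes in probe sets below the filter.

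**Figure D1:**
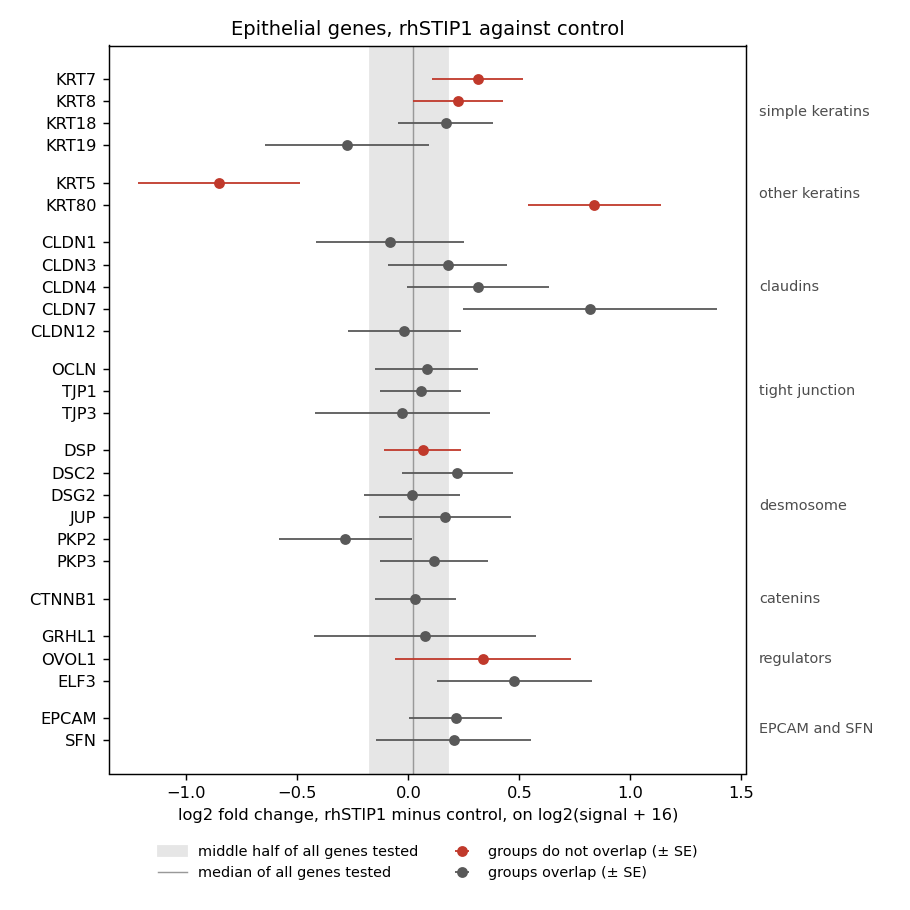
Log2 fold change (rhSTIP1 minus control) of the 26 tested genes, with the standard error from the model as bars, grouped by role. The grey band is the interquartile range of all genes tested, from −0.17 to 0.18, and KRT5 and KRT80 lie farthest from it on either side, at −0.85 and 0.84.

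The simple keratins, which form the filaments of glandular epithelium, were bright on all arrays and differed little. KRT7 had signals of 9611 and 7517 in rhSTIP1 cells, against 6769 and 6923 in control cells, a log2 fold change of 0.31 ± 0.20 (SE). KRT8 had 5633 and 5023 in rhSTIP1 cells, against 4582 and 4538 in control cells, or 0.22 ± 0.20. For both genes the rhSTIP1 arrays lay above the control arrays, 1.24-fold for KRT7 and 1.17-fold for KRT8 in the model. A dimmer probe set of KRT7 was separated in the opposite direction, with a log2 fold change of −0.45, and averaging all probe sets of KRT7 gave −0.49. KRT18, the filament partner of KRT8, had 11821 and 8579 in rhSTIP1 cells, against 9394 and 8533 in control cells, and the groups overlapped (0.17 ± 0.21). KRT19 overlapped as well, at 4534 and 3059 in rhSTIP1 cells, against 6515 and 3123 in control cells (−0.28 ± 0.37). In that gene array 1 was the higher of both groups.

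Among the other keratins, KRT80, a type II keratin found with desmosomes in differentiating epithelium, had signals of 1322 and 1140.2 in rhSTIP1 cells, against 880.4 and 524 in control cells. Both rhSTIP1 arrays lay above both control arrays, 1.79-fold in the model (log2 fold change 0.84 ± 0.30, unadjusted p = 0.0251 and adjusted p = 0.999 in limma). KRT5, a keratin of basal cells, had 152 and 154 in rhSTIP1 cells, against 402 and 206 in control cells. It was lower in both rhSTIP1 arrays, 1.81-fold (−0.85 ± 0.37, unadjusted p = 0.0497 and adjusted p = 0.999 in limma). Control array 1 held the highest KRT5 signal of the 4, and without it the log2 fold change was −0.40, while without control array 2 it was −1.31. Without control array 2, which held the lowest KRT80 signal, that of KRT80 was 0.47, and without control array 1 it was 1.20. KRT15, another basal keratin, ranged from 7.08 to 30.5 and was not tested, because its mean signal of 13.6 was below the filter. KRT80 and KRT5, the 2 members separated by at least 1.5-fold and the only other keratins tested, went in opposite directions. Their share of the members, 7.69%, was near the 5.69% of all genes.

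**Figure D2:**
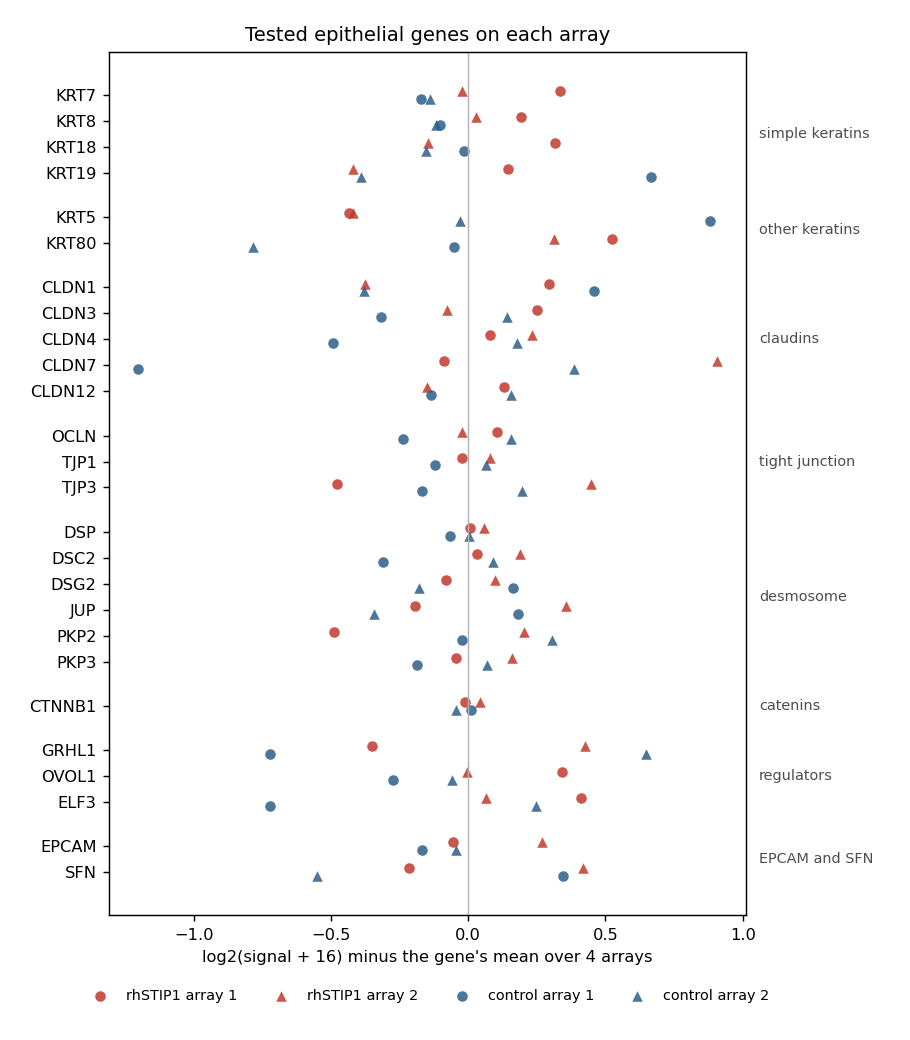
Each tested gene on each array, as log2(signal + 16) minus the gene's mean over the 4 arrays; circles are arrays numbered 1, triangles arrays numbered 2, red rhSTIP1 and blue control. For KRT80 both red points lie right of both blue ones and for KRT5 left of them, while for CLDN7 and GRHL1 both triangles lie right of both circles.

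The claudins set the tightness and ion selectivity of tight junctions. Where 28.9% of all genes had groups that did not overlap, the groups overlapped for all 5 tested claudins. CLDN7 had the largest fold change of them, with signals of 137 and 289 in rhSTIP1 cells, against 54.7 and 196 in control cells (0.82 ± 0.57, unadjusted p = 0.193 in limma). Control array 2 lay above rhSTIP1 array 1, and control array 1 was far below the other 3 arrays. Without control array 1 the log2 fold change was 0.03, and without control array 2 it was 1.61. CLDN4, a claudin abundant in ovarian carcinoma, had 266 and 298 in rhSTIP1 cells, against 174 and 286 in control cells (0.31 ± 0.32). CLDN3 had 1549 and 1231 in rhSTIP1 cells, against 1039 and 1433 in control cells (0.18 ± 0.27). In both genes control array 1 was the lowest of the 4. CLDN1 had 8091 and 5069 in rhSTIP1 cells, against 9069.6 and 5067 in control cells, and its fold change was −0.08 ± 0.33. The log2 fold change of CLDN12 was −0.02 ± 0.26, and it turned to 0.02 with median centring of the arrays and to 0.01 with quantile normalization.

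The windows of 250 bases before the transcription starts of CLDN7, CLDN1 and KRT5 are shown because CLDN7 and CLDN1 differed in opposite directions between the numbered arrays, as given below, and KRT5 had the lowest fold change. Capitals mark the E-box CACCTG, read on both strands (CAGGTG on the other), the hexamer that SNAI and ZEB repressors bind. The sequences are from RefSeq on GRCh38.p14, each 5′ to 3′ on the gene's own strand, at chr17:7262479-7262728 for CLDN7, chr3:190322447-190322696 for CLDN1 and chr12:52520395-52520644 for KRT5, all on the minus strand.
CLDN7: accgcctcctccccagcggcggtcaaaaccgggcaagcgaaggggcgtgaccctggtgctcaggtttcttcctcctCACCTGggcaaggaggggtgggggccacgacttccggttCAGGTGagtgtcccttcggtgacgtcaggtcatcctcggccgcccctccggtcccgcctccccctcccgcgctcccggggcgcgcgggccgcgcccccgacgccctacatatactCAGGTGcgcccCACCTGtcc
CLDN1: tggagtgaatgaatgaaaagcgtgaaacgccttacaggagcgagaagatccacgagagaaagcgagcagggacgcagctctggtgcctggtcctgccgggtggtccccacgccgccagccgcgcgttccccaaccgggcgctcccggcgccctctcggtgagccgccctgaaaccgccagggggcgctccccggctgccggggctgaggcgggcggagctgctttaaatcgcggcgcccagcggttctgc
KRT5: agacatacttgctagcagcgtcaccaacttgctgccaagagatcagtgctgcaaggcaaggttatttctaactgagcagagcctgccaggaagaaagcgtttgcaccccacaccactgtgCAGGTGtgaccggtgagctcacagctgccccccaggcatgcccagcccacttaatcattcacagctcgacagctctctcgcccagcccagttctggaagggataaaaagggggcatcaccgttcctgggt
The CLDN7 window held 4 matches, whose first bases lay 174, 135, 20 and 9 bases before the start, the KRT5 window held 1, at 130 bases, and the CLDN1 window held 0. CLDN7 has 2 listed starts, and the one with matches is shown, while the other held 0. Of other members higher on the arrays numbered 2 of both groups, GRHL1 and CLDN4 held 0. TJP1, TJP3 and DSC2, also higher on them, each had a window with 1. Among members not separated by array number, the E-box was also in a window of SFN, ELF3, OCLN, DSP, JUP and DSG2. The windows of CTNNB1, CLDN3, CLDN12 and KRT8, likewise not separated by number, held 0. Whether the motif goes with the difference between numbered arrays was not tested. Windows were at hand for 18 of the 35 members, 26 windows in all, and 12 of them (46.2%) held the E-box, against 17.5% of 35116 windows of all genes. The grainyhead-like motif AACCNGTT, searched on both strands, was in 0 of the 26 windows and in 1.49% of all. The motifs were chosen after the values were seen, a match shows only that the letters are there, and windows of the same gene can overlap.

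Where 28.9% of all genes had groups that did not overlap, the other 3 tested tight junction genes overlapped, with fold changes close to 0. OCLN, which encodes occludin, had signals of 4041 and 3699 in rhSTIP1 cells, against 3186 and 4188 in control cells (0.08 ± 0.23). TJP1, the scaffold ZO-1 that links junctions to actin, had 9447 and 10159 in rhSTIP1 cells, against 8831 and 10048 in control cells, and its fold change of 0.06 ± 0.18 was just under 0 with quantile normalization. TJP3, the scaffold ZO-3, had 113 and 229 in rhSTIP1 cells, against 144 and 189 in control cells (−0.03 ± 0.39, and just above 0 with median centring or quantile normalization). The control arrays of TJP3 lay between the rhSTIP1 arrays.

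Of the 6 desmosome genes, DSP alone (16.7%, against 28.9% of all genes) had groups that did not overlap, and by a small margin. DSP, the plaque protein that anchors keratin filaments, had signals of 10227 and 10596 in rhSTIP1 cells, against 9718 and 10203 in control cells, a log2 fold change of 0.06 ± 0.17 that turned to −0.01 with quantile normalization. DSC2, a desmosomal cadherin, had 1570.4 and 1751 in rhSTIP1 cells, against 1233 and 1636 in control cells (0.22 ± 0.25). PKP2, a plakophilin of the plaque, had 915 and 1491 in rhSTIP1 cells, against 1272 and 1599 in control cells (−0.28 ± 0.30). In both genes array 2 was the higher of each group. JUP, plakoglobin, had 1382 and 2029 in rhSTIP1 cells, against 1795 and 1242 in control cells (0.16 ± 0.30), so its order between the numbered arrays was opposite in the 2 groups. DSG2, the desmoglein of simple epithelia, had a fold change of 0.02 ± 0.22 (−0.04 with quantile normalization), and PKP3 had 0.12 ± 0.24. CTNNB1, beta-catenin, which joins cadherins to the cytoskeleton and carries Wnt signals, had 7432 and 7722 in rhSTIP1 cells, against 7548 and 7274 in control cells (0.03 ± 0.18, and −0.03 with quantile normalization).

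The regulators had fold changes above 0 in all 3 tested genes, where 53.2% of all genes did, with standard errors from 0.35 to 0.50. ELF3, an ETS factor restricted to epithelia, had signals of 1312 and 1029 in rhSTIP1 cells, against 589.6 and 1169 in control cells (0.48 ± 0.35, unadjusted p = 0.212 in limma). Control array 1 was the lowest of the 4, and without it the fold change was −0.01. OVOL1, a zinc finger repressor of mesenchymal genes, had 98.4 and 74.05 in rhSTIP1 cells, against 58.7 and 70.7 in control cells (0.335 ± 0.40). Its groups did not overlap, but its mean of 75.5 was just above the filter and its control arrays averaged below it. GRHL1 had 139 and 249 in rhSTIP1 cells, against 104 and 293 in control cells (0.08 ± 0.50). GRHL2, a grainyhead-like factor that maintains epithelial junctions, was below the filter at 7.20 and 38.6 in rhSTIP1 cells, against 43.9 and 53.9 in control cells, and was not tested. The surface glycoprotein EPCAM had 5943 and 7442 in rhSTIP1 cells, against 5494 and 5987 in control cells, and the groups overlapped (0.21 ± 0.21). SFN, the epithelial 14-3-3 protein, had 3471 and 5401 in rhSTIP1 cells, against 5131 and 2751 in control cells (0.20 ± 0.35), and the arrays of the groups interleaved. The membrane protease ST14 ranged from 4.06 to 31.7 in its brightest probe set and was not tested.

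The probe sets of a gene often disagreed. Among the tested members, 11 had more than 1 probe set at or above the filter, and in 9 of these the log2 fold changes had both signs. The exceptions were ELF3, whose 3 probe sets lay between 0.325 and 0.48, and CLDN1, whose 2 were at −0.08 and −0.37. For KRT7 a dimmer probe set had a log2 fold change of −0.45, against 0.31 for the one used, and for CTNNB1 the dimmer ones had −0.435 and −0.205. Of the 16 dimmer probe sets of members, 12 were below 0, with a median of −0.24, where over all genes 53.8% of such probe sets were below 0 and the median was −0.03. What set the brighter and dimmer probe sets of a gene apart was not tested.

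**Figure D3:**
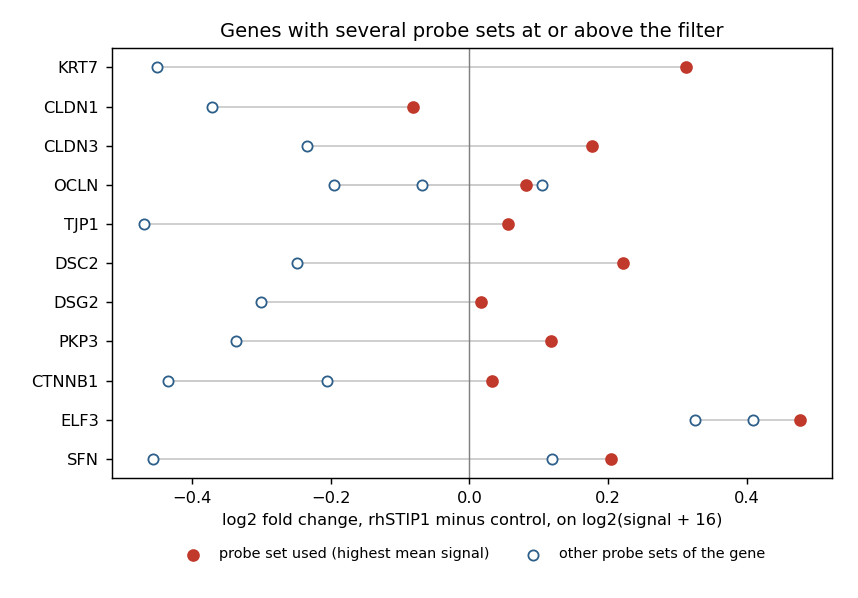
Log2 fold change (rhSTIP1 minus control) of every probe set at or above the filter, for the 11 genes with more than 1; the filled point is the probe set used. In 9 genes the points fall on both sides of 0, and in ELF3 all 3 lie above it.

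The 2 arrays of a group differed from each other by more than the group means did, each of which averages 2 arrays. The members' median absolute difference between array 2 and array 1 was 0.33 in rhSTIP1 cells and 0.38 in control cells on the log2 scale, while their median absolute fold change between groups was 0.19. The same 3 values over all genes were 0.30, 0.28 and 0.18. For 12 members (46.2%) both arrays numbered 2 lay above, or both below, both arrays numbered 1, against 48.5% of all genes. Arrays 2 were higher for 9 of the 26 members, where 27.0% of all genes were. They were lower for 3 of the 26, KRT18, KRT19 and CLDN1, where 21.5% of all genes were. The difference had the same sign in both groups for 15 members (57.7%), against 64.4% of all genes. A difference of at least 2-fold in both groups was found in 0 members and in 1.03% of all genes.

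CLDN7 had signals of 289 and 196 on the arrays numbered 2 of rhSTIP1 and control cells, against 137 and 54.7 on the arrays numbered 1, or 1.00 and 1.59 on the log2 scale. GRHL1 had 249 and 293 on arrays 2, against 139 and 104 on arrays 1 (0.78 and 1.37). CLDN1 went the other way, at 5069 and 5067 on arrays 2, against 8091 and 9069.6 on arrays 1 (−0.67 and −0.84). Its dimmer probe set had larger differences of the same sign, at 471 and 649 on arrays 2, against 1467 and 1801 on arrays 1 (−1.61 and −1.45). KRT19 had −0.57 in rhSTIP1 cells and −1.06 in control cells. Other members differed in opposite directions in the 2 groups. SFN had 0.635 in rhSTIP1 cells and −0.90 in control cells, JUP 0.55 and −0.525, and ELF3 −0.35 and 0.97. The brightest probe set of ELF3 stood alone in this, while the other 2 were higher on array 2 of both groups. As these are whole cultures, fewer cells expressing a gene and less RNA per cell cannot be told apart.

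**Figure D4:**
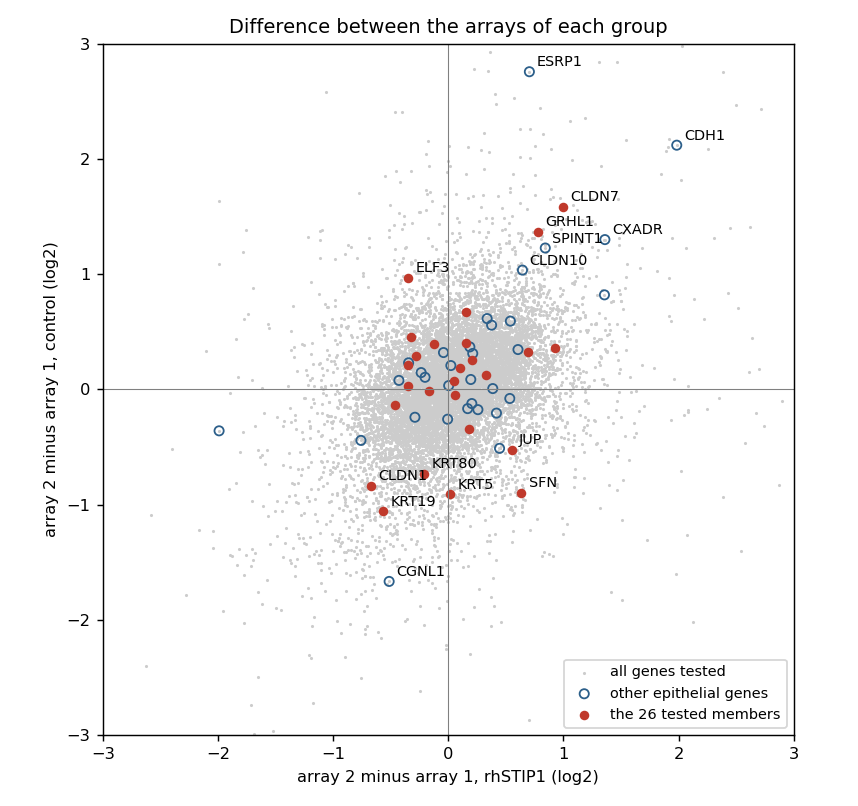
Difference between array 2 and array 1 on the log2(signal + 16) scale, within rhSTIP1 cells (horizontal) and within control cells (vertical); filled points are the 26 tested members, open circles other epithelial genes and grey points all genes tested, of which 5 lie outside the axes. CLDN7 and GRHL1 lie in the upper right with CDH1, CLDN1 and KRT19 in the lower left, and SFN and JUP in the lower right.

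A list of 60 other epithelial genes, taken from the same families, gave 32 that were tested. Of these 0 had an unadjusted p under 0.05 in limma, against 3.68% of all genes. The log2 fold change was above 0 for 24 (75%) and below 0 for 8, where 53.2% of all genes were above 0. Its median was 0.10, against 0.02 over all genes. These values, too, are from the brightest probe set of each gene. The groups did not overlap for 8 (25% of those tested, against 28.9% of all genes). With rhSTIP1 5 of the 32 were separated higher and 3 lower, where the shares of all genes were 14.0% and 14.9%. The smallest p-values were those of KLF5, PALS1, PATJ and LLGL2. KLF5, a zinc finger factor of epithelial progenitors, had signals of 1826 and 2491 in rhSTIP1 cells, against 3816 and 2671 in control cells (−0.58 ± 0.28, unadjusted p = 0.0722 in limma). The polarity genes PALS1 and LLGL2 were lower in both rhSTIP1 arrays at −0.33 ± 0.23 and −0.35 ± 0.25, whereas PATJ, whose product binds that of PALS1, was higher in both at 0.32 ± 0.23.

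CDH1, E-cadherin, differed about 4-fold between the numbered arrays in both groups. Its signals were 2109.8 and 1355 on arrays 2 of rhSTIP1 and control cells, against 521 and 299 on arrays 1, or 1.98 and 2.12 on the log2 scale. Its log2 fold change between rhSTIP1 and control was 0.70 ± 0.78, with overlapping groups. ESRP1, an epithelial splicing regulator, had 139 and 132 on arrays 2, against 78.9 and 5.88 on arrays 1. The arrays numbered 1 averaged below the filter for ESRP1, and a signal as low as 5.88 could not be told from background. Of the 32 tested genes of the list, 19 (59.4%) were separated by array number, against 48.5% of all genes. Arrays 2 were higher for 14 of the 32 and lower for 5, where the shares of all genes were 27.0% and 21.5%. The genes named next were chosen after their values were seen. CXADR was higher on arrays 2, by 1.36 in rhSTIP1 cells and 1.30 in control cells, and SPINT1 by 0.84 and 1.23. CGNL1 was lower on them, at −0.51 in rhSTIP1 cells and −1.67 in control cells, and CLDN16 at −1.99 and −0.36.

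Mesenchymal genes were measured on the same arrays. SNAI2, a repressor of CDH1, had signals of 1547 and 942 in rhSTIP1 cells, against 640.5 and 225 in control cells, a log2 fold change of 1.62 ± 0.47 that did not pass over all genes (adjusted p = 0.847 in limma). In each group its array numbered 2 was the lower one. COL1A1, a fibroblast marker, was also lower on the arrays numbered 2, at −0.90 in rhSTIP1 cells and −2.32 in control cells, while the fibroblast gene PDGFRA was higher on them, at 0.515 and 0.935. ZEB1 had 1881 and 1886 in rhSTIP1 cells, against 2825 and 1958 in control cells. The summed signal of the 8 mesenchymal genes was 34597 and 30086 in rhSTIP1 cells, against 35892 and 31542 in control cells, with ZEB2 at or below 23.9 on every array. The groups did not overlap for 3 of the 7 tested, against 28.9% of all genes. FN1 (log2 fold change 0.09 ± 0.20) and SNAI2 were higher with rhSTIP1, and ZEB1 (−0.32 ± 0.26) was lower. The part of these genes, of the fibroblast markers and of the high ACTB ratio of rhSTIP1 array 2, in the values of the epithelial genes was not tested.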

How the data were processed

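RNA of 2 rhSTIP1 and 2 control samples of SKOV3 cells was measured on Affymetrix arrays. Per the submitters' processing notes, the authors made the deposited intensities with MAS5 (Affymetrix Expression Console 1.1); no log had been taken. Their trimmed mean, leaving out 2% at each end, was 500.1 on every array. The table used has no detection calls that would set a dim signal apart from background, and precision is limited by how few arrays there are.

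Of 54675 probe sets, 62 were controls, 41091 had 1 gene symbol in the platform annotation, 1801 several and 11721 none. Probe sets with several symbols were used for no gene. For each of 19775 genes the probe set brightest on average over the 4 arrays was used. The 12296 genes whose mean reached 69.4, the median over probe sets other than controls, were fitted on log2(signal + 16) in limma 3.58.1 (lmFit, then eBayes with an intensity trend, in R 4.3.3), and two-sided p-values were adjusted over all of them by Benjamini-Hochberg. The residual degrees of freedom were 2, to which the shared spread added 5.56. Groups were said not to overlap where both rhSTIP1 arrays lay above or both below both control arrays.

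The steps were tested on simulated data for rhSTIP1 against control with 12296 genes. Of genes changed 2-fold 0 of 67 were recovered, of those changed 4-fold 23 of 67 and of those changed 16-fold 59 of 66, with 4 false calls. The members and the lists were chosen with earlier results of these data known. Values on every array were given for members whose groups did not overlap and for up to 3 members of each role with the smallest unadjusted p. From the list of other epithelial genes, the 4 with the smallest p, CDH1 and ESRP1 were named. CLDN1 and KRT19 were described for their differences between numbered arrays. Promoter windows came from RefSeq. The fit was repeated with another pseudocount, filter, scaling and rule for probe sets, with a replicate block, without the eBayes trend, and without each array in turn. In that last case a group of 1 array is assumed to vary like the other group.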

Additional observations from a re-analysis of the deposited data

How the results depend on the processing

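No member was called at an adjusted p of 0.05 under any alternative run with all arrays kept. Of 332 fold changes of single members recomputed, 290 kept their direction and 42 changed it. A replicate block, no eBayes trend and another filter leave a gene's fold change unchanged. Those runs, counted in the 332, could not turn a direction. Over all genes, where 0 were called, 1 was called with a filter at the 70th percentile, 2 with median centring and from 0 to 6 with 1 array left out (6 without control array 2, 3 without control array 1). With the replicate number as a block 247 genes were called and 0 members, KRT80 having an adjusted p of 0.053 in limma against a range of 0.053 to 1 over its alternatives. With that block CLDN7 had an unadjusted p of 0.0281 and an adjusted p of 0.42 in limma. KRT5 had 0.0141 and 0.288 in the same fit. The differences between array 2 and array 1 of the 2 groups correlated across the 12296 genes at r = 0.362. Genes are not independent replicates, and with 2 pairs and no label that explains the number, the samples were not treated as paired.

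The count of members separated by at least 1.5-fold was 1 with the filter at the 70th percentile, which left out KRT5, and ran from 3 to 6 with 1 array left out, which leaves fewer values to overlap (3 without control array 1 or rhSTIP1 array 1, 4 without rhSTIP1 array 2, 6 without control array 2). The share of all genes so separated was 5.69% with all arrays. It was 8.64% when control array 1 was omitted, 16.1% for control array 2, 12.6% for rhSTIP1 array 1 and 11.6% for rhSTIP1 array 2. The members' median log2 fold change ran from 0.03 to 0.18 with 1 array left out. It was −0.016 when a gene's probe sets were averaged, against −0.013 over all genes. The median difference between array 2 and array 1, 0.05 in rhSTIP1 cells and 0.155 in control cells, was −0.038 and 0.051 with the filter at the 70th percentile, and −0.064 in rhSTIP1 cells with median centring.

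The mean of a gene's probe sets gives dim ones, also those below the filter, the same weight as bright ones. With it direction changed for KRT7 (−0.49), CTNNB1 (−0.20), PKP3 (−0.11), PKP2 (0.42), DSG2 (−0.14), GRHL1 (−0.40), SFN (−0.0442), OCLN (−0.0196), CLDN3 (−0.0285) and TJP1 (−0.21). The other probe set of PKP2, below the filter at a mean of 34.3, had 1.116, and that of GRHL1, at 42.3, had −0.875. With quantile normalization it changed for TJP1 (−4.1e-04), DSP (−0.0103), DSG2 (−0.0416), CLDN12 (0.0147), CTNNB1 (−0.0293) and TJP3 (0.00478), and with median centring for TJP3 (0.0125) and CLDN12 (0.0208). Why the probe sets of a gene differed, and why scaling turned these signs, was not tested. With 1 array left out, the fold change of KRT18 ran from −0.0615 to 0.40, KRT19 from −0.80 to 0.25, CLDN1 from −0.50 to 0.34, CLDN3 from −0.0522 to 0.41, CLDN4 from −0.0228 to 0.65, CLDN12 from −0.16 to 0.13, OCLN from −0.115 to 0.28, TJP1 from −0.0365 to 0.15, TJP3 from −0.49 to 0.435, DSG2 from −0.155 to 0.19, JUP from −0.11 to 0.44, PKP2 from −0.63 to 0.0629, PKP3 from −0.0114 to 0.25, GRHL1 from −0.61 to 0.76, ELF3 from −0.00843 to 0.96 and SFN from −0.24 to 0.65.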
